A study of Homo sapiens with 10 samples.

Results

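The response of 3 human esophageal squamous cell carcinoma (ESCC) lines to interferon-beta (IFN-β) was followed gene by gene, within each line, across the whole transcriptome. KYSE30, KYSE180 and KYSE450 each gave 1 library from cells exposed to IFN-β at 1000 IU/ml for 72 h and 1 untreated library from cells given PBS over the same time. The 6 libraries of these 2 groups, of 10 in the series, were taken by the treatment and cell line in their labels. The other 4 belong to a separate experiment, the knockdown of a long non-coding RNA, and were not used here. The labels give passages 5 to 10 for the cells and name no genetic change in either group. Each line is an established tumor culture with 1 library per arm, so the lines are the replicates and the p-values measure the spread between lines, not between cultures of 1 line.

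IFN-β is a type I interferon. It binds the IFNAR1 and IFNAR2 receptor chains on nearly every cell, and the kinases JAK1 and TYK2 then phosphorylate transcription factors such as STAT2, which joins IRF9 in the complex ISGF3. ISGF3 binds the interferon-stimulated response element, a repeat of GAAA-type half-sites, in the promoters of interferon-stimulated genes, whose products block viral replication, display peptides on MHC class I and restrain the pathway itself. Long exposure to interferon is also known for effects outside this program, on translation, proliferation and differentiation.

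The deposited values were labelled FPKM, read numbers corrected for transcript length and library size, and were listed for 20502 named genes, most of them protein-coding, and for 16044 long non-coding genes. FPKM carry no read totals, and those of named genes are rounded to 2 decimals, so read depth is unknown. The values of named genes summed to between 988427 and 993533 per library, nearly a fixed total as in TPM, and those of long non-coding genes to between 50038 and 92837. The long non-coding sum was lower in the treated library of each line. Untreated and treated, it was 75030 and 51366.8 in KYSE30, 92837.3 and 53560.5 in KYSE180 and 56259.2 and 50038.4 in KYSE450. No label or file header says how either set was scaled. Levels are therefore not compared between these 2 sets, and changes of long non-coding genes are relative to the scaling of the named genes. Where pairs of FPKM follow, the untreated library comes first and the treated one second, and 3 values in a row follow the order KYSE30, KYSE180, KYSE450. Between 10993 and 11887 named genes reached 1 FPKM per library. The structural RNAs RMRP and RPPH1 held between 37.2% and 41.9% of the summed FPKM of named genes in 5 libraries and 26.5% in IFN-β-treated KYSE450, which stands apart. The libraries were therefore put on one scale by median-of-ratios factors, between 0.799 and 1.15. Squamous markers were present: all 10 on the list passed the filter, although KRT5 and KRT14 were at 3.13 and 2.81 FPKM in untreated KYSE30. Only CD68 of 13 leukocyte markers and ACTA2 of 12 fibroblast and endothelial markers passed it.

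Of 12401 genes tested, 57 passed the threshold (limma, Benjamini-Hochberg adjusted p under 0.05, cell line as a block). After IFN-β 55 of them were higher (0.444% of genes tested) and 2 were lower (0.0161%). Each of the 55 was higher in every line, and each had a log2 fold change above 1 on the log2(FPKM + 1) scale used throughout, which understates the change of genes with low levels. At an unadjusted p under 0.05 there were 555 genes higher and 627 lower. In 44 of the 55 the lowest treated library lay above the highest untreated library, and in 11 the levels of the groups overlapped across lines. These genes were picked by a test on the same values, and no such count was made over all genes tested. The same limit holds for single genes below whose groups are said not to overlap. Before treatment 5 of the 55 were under 1 FPKM in every untreated library. In every treated library 38 exceeded 10 FPKM, against 15 in every untreated one. Without scaling, 193 genes were called higher and 44 lower, and all 57 were among these 237. With KYSE30 left out, 65 genes were called, 36 of them shared with the 57. With KYSE180 left out, 79 were called and 42 were shared, and with KYSE450 left out, 38 were called and 28 were shared.

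The lists that defined the classical response were interferon-stimulated genes, the receptors with their kinases and nuclear factors, and MHC class I presentation. Together they hold 277 listed genes, of which 211 passed the filter, some through their treated libraries alone. The test called 47 of them higher and 0 lower (137 and 2 at an unadjusted p under 0.05), and 153 were higher in every line, against 16.7% of all genes tested, while 8 were lower in every line, against 18.6%. Their median log2 fold change was 1.06, and that of all genes tested was -0.01. The share of summed FPKM that these genes took, with RMRP and RPPH1 left out of the sum, was 0.888% untreated and 3.81% treated in KYSE30, 1.30% and 4.64% in KYSE180, and 0.765% and 3.60% in KYSE450.

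**Figure D1:**
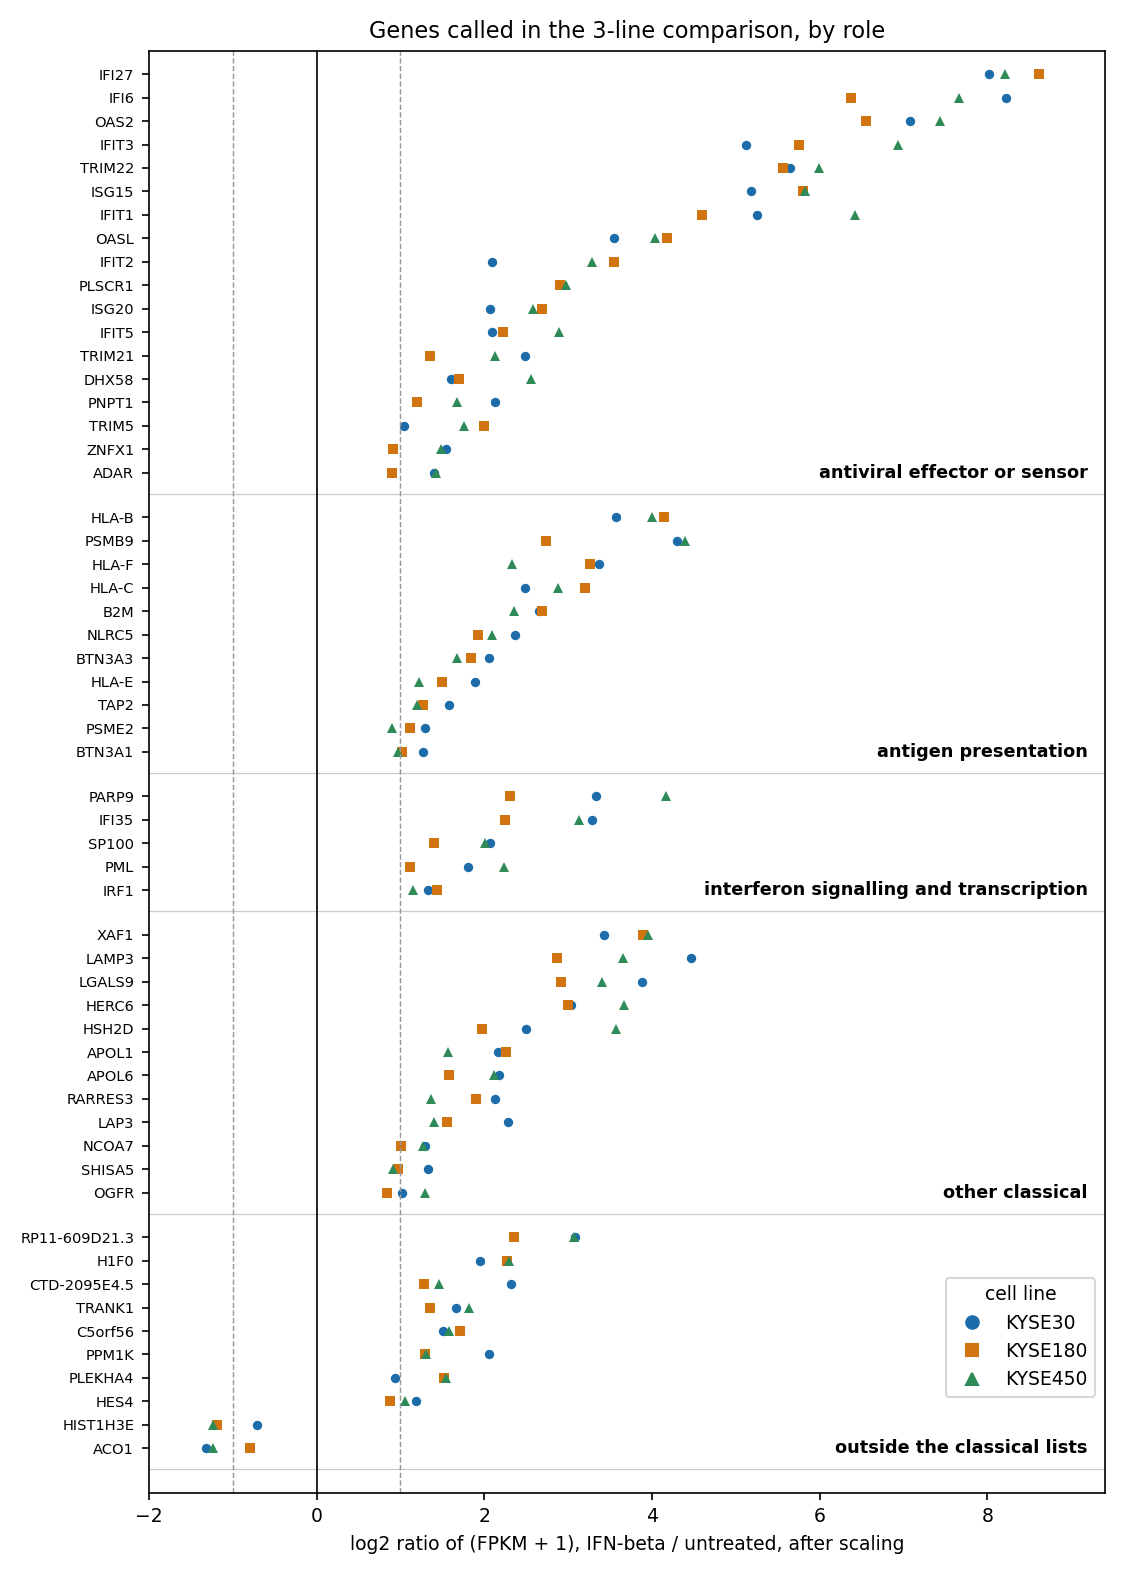
Log2 ratio of (FPKM + 1) of IFN-β-treated over untreated cells after scaling, for called genes grouped by role, with 1 point per line and dashed lines at a 2-fold change. The genes called higher lie to the right of 0 in every line, and HIST1H3E and ACO1 lie to the left of it in every line.

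Antiviral effectors and sensors made up 18 of the 55, with log2 fold changes from 1.24 to 8.28 and a median of 2.96. IFI27, a small hydrophobic interferon-induced protein, stood at 1.73 and 707 FPKM in KYSE30, 0.923 and 751 in KYSE180 and 2.15 and 932 in KYSE450. The 3 treated libraries were alike and far above the untreated ones, and the log2 fold change was 8.28 ± 0.15 (SE, limma adjusted p = 5.03e-06). IFI6, a related protein of the same family, stood at 7.38 and 2492 FPKM in KYSE30, 27.3 and 2348 in KYSE180 and 8.36 and 1902 in KYSE450, a log2 fold change of 7.42 ± 0.36 (adjusted p = 0.00226). OAS2, which makes the oligoadenylates that switch on RNase L, was under 1 FPKM in every untreated library and at 195, 157 and 220.4 FPKM in treated KYSE30, KYSE180 and KYSE450, with a log2 fold change of 7.03 ± 0.18 (adjusted p = 2.55e-05).

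The IFIT proteins bind foreign RNA ends, and 4 of them were called: IFIT3 at 5.94 ± 0.35, IFIT1 at 5.43 ± 0.35, IFIT2 at 2.98 ± 0.29 and IFIT5 at 2.40 ± 0.18 on the log2 scale. ISG15, a ubiquitin-like protein attached to other proteins, stood at 48.9 and 1810.0 FPKM in KYSE30, 12.4 and 742 in KYSE180 and 23.0 and 1361 in KYSE450. The ubiquitin ligase TRIM22 was under 1 FPKM in all 3 untreated lines and reached 65.5, 48.5 and 68.9 FPKM in KYSE30, KYSE180 and KYSE450. PLSCR1, a phospholipid scramblase with antiviral activity, had nearly the same log2 ratio in the 3 lines, 2.91, 2.91 and 2.97, the narrowest range of any gene called higher. The smaller changes of this group included the RNA editing enzyme ADAR, at 1.24 ± 0.16 (adjusted p = 0.0324), which was already between 58.4 and 60.5 FPKM in untreated cells. Several of these calls were lost when 1 line was left out. Without KYSE30 the adjusted p of ADAR was 0.222, and without KYSE450 it was 0.137 for ADAR, 0.102 for IFI6 and 0.251 for IFIT2. Without KYSE180 it was 0.196 for IFIT3 and 0.133 for IFIT2.

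Promoters of called genes are shown here because the motif that ISGF3 binds can be read in them. The motif searched was GAAANNGAAA on either strand, in windows from 250 bases before to 50 after the starts that RefSeq lists (GRCh38.p14), and matches may overlap. A window held it for 21 of the 31 called classical genes found in the promoter table (67.7%), for 46 of 134 classical genes that were tested and not called (34.3%) and for 284 of 9047 genes outside the lists that were not called (3.14%). Over all 35116 windows of the table, 1255 (3.57%) held it. The sequences below are the 200 bases before the start, 5′ to 3′ on the gene's strand, with the matches in capitals, for the 5 called classical genes with the largest changes among those with a match. They are IFI27 at chr14:94110536-94110735 on the plus strand, IFI6 at chr1:27672193-27672392 on the minus strand, IFIT3 at chr10:89327797-89327996 on the plus strand, ISG15 at chr1:1013297-1013496 on the plus strand and IFIT1 at chr10:89392423-89392622 on the plus strand.
IFI27: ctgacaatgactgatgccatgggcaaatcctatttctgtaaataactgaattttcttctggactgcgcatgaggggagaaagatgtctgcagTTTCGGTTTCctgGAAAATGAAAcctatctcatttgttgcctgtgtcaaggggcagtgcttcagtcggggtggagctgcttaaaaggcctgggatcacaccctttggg
IFI6: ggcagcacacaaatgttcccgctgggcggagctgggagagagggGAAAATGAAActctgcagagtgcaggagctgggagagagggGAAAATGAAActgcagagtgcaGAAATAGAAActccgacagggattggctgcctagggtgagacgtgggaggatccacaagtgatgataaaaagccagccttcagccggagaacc
IFIT3: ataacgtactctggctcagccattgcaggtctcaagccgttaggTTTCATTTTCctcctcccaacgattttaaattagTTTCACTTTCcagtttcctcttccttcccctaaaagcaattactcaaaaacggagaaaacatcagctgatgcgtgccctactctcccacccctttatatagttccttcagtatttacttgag
ISG15: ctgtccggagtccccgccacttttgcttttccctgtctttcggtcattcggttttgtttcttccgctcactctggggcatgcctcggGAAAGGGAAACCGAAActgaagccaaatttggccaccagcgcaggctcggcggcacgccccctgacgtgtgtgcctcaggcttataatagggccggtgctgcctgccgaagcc
IFIT1: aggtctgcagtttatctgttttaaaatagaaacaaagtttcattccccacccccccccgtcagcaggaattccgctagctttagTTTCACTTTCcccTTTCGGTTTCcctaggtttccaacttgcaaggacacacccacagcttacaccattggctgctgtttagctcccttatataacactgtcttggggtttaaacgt
The matches begin between 93 and 156 bases before the start. IFI6 carries 3, and the 2 of ISG15 overlap. A match is a run of letters and does not show that a factor was bound.

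Antigen presentation contributed 11 of the 55, at log2 fold changes from 1.09 to 3.90 with a median of 2.13. The heavy chain gene HLA-B stood at 52.0 and 628 FPKM in KYSE30, 63.3 and 1135 in KYSE180 and 21.7 and 362 in KYSE450, a log2 fold change of 3.90 ± 0.16 (limma adjusted p = 0.000192). B2M, the light chain shared by all class I molecules, was abundant before treatment, at 372 to 668 FPKM, and reached 2342, 4308 and 2164 FPKM in KYSE30, KYSE180 and KYSE450. NLRC5, the transactivator of class I genes, rose by 2.13 ± 0.15 and the peptide transporter gene TAP2 by 1.35 ± 0.13. The immunoproteasome subunit PSMB9 was under 1 FPKM in untreated KYSE30 and KYSE450 and at 14.1 FPKM in untreated KYSE180, and its log2 ratios were 4.30, 4.40 and 2.74 in that order. The adjusted p of TAP2 and PSMB9 was 0.0758 and 0.0647 without KYSE30 and 0.0506 and 0.207 without KYSE450. Of the 22 genes of the MHC class I list 9 were called, 20 were higher in every line and the chaperone gene CANX was lower in every line. The HLA genes resemble each other, as do the butyrophilin genes BTN3A1 and BTN3A3, also called here, and how shared reads were assigned is not stated, so single values in these families are uncertain.

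The pathway's own factors differed in how evenly they moved. IRF1 rose by 1.30 ± 0.14 (adjusted p = 0.0144, but 0.0865 without KYSE30 and 0.0551 without KYSE450). IRF9 and STAT2 were higher in every line at 2.83 ± 0.35 (adjusted p = 0.0713) and 1.78 ± 0.32 (adjusted p = 0.194) and were not called. The receptors and kinases showed no call: log2 fold changes were 0.08 ± 0.17 for IFNAR1, 0.13 ± 0.20 for IFNAR2, -0.08 ± 0.14 for JAK1 and 0.19 ± 0.12 for TYK2. The feedback inhibitors SOCS1 and USP18 were higher in every line, at 0.89 ± 0.17 and 3.38 ± 0.50, and were not called. PARP9, at 3.27 ± 0.35, IFI35, SP100 and PML were also called among the genes of interferon signalling and transcription. Without KYSE450 none of these 4 was called, with adjusted p of 0.0532 for PARP9, 0.0588 for IFI35, 0.0513 for SP100 and 0.133 for PML. Without KYSE30 it was 0.146 for PARP9 and 0.139 for PML.

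A further 12 called genes of the classical lists fall in none of these roles. They include XAF1, a binding partner of the apoptosis inhibitor XIAP, which was under 1 FPKM in every untreated line and reached 11.5, 16.0 and 16.5 FPKM in KYSE30, KYSE180 and KYSE450. The galectin gene LGALS9 rose by 3.40 ± 0.20, the HERC-family ubiquitin ligase gene HERC6 by 3.24 ± 0.17 and the lysosomal membrane gene LAMP3 by 3.67 ± 0.30. The aminopeptidase gene LAP3 rose by 1.74 ± 0.19 and APOL1, the trypanosome lytic factor, by 2.00 ± 0.19. The least of this group was OGFR, the opioid growth factor receptor gene, at 1.05 ± 0.13. Without KYSE450 the adjusted p was 0.194 for LAMP3, 0.0509 for LAP3 and 0.152 for OGFR. It was 0.0647 for LAP3 and 0.179 for OGFR without KYSE30, and 0.101 for LAP3 without KYSE180.

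Several well known interferon-stimulated genes were higher in every line by unequal amounts and were not called. OAS1 had log2 ratios of 4.56, 4.11 and 6.89 (adjusted p = 0.159). MX1 had 0.98, 5.09 and 1.61 (adjusted p = 0.549). BST2 had 7.14, 2.67 and 7.38 (adjusted p = 0.420), and DDX58, the RNA sensor RIG-I, had 4.18, 1.75 and 5.30 (adjusted p = 0.432). Without KYSE180 the adjusted p was 0.000116 for BST2 and 0.0267 for DDX58, and without KYSE450 it was 0.000741 for OAS1. IFI44 was just outside the threshold (adjusted p = 0.0530), and just inside it were HIST1H3E (0.0498) and PARP9 (0.0493).

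Outside the classical lists 8 genes were called higher and 2 lower, of 12190 genes tested. The linker histone gene H1F0 (22:37805093-37807436, plus strand, GENCODE release 29 on GRCh38), whose protein H1.0 accumulates in cells that have stopped dividing or differentiate, had the largest change among the protein-coding ones. It stood at 6.07 and 26.4 FPKM in KYSE30, 12.5 and 64.1 in KYSE180 and 11.6 and 61.0 in KYSE450, so that every treated library lay above every untreated one. The log2 fold change was 2.17 ± 0.13 (limma adjusted p = 0.00126), and 12 of 13 alternative settings called it too. No other of the 23 histone genes tested was called higher: 5 were higher and 5 lower in every line, with a median log2 fold change of -0.01.

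The other protein-coding genes called higher in this set were TRANK1, PPM1K, HES4 and PLEKHA4. TRANK1, a large ankyrin repeat protein gene, stood at 0.323 and 3.18 FPKM in KYSE30, 1.08 and 4.31 in KYSE180 and 0.125 and 2.96 in KYSE450, with 1.61 ± 0.16 on the log2 scale (adjusted p = 0.0129). PPM1K, the mitochondrial phosphatase that activates branched-chain amino acid breakdown, stood at 1.96 and 11.3 FPKM in KYSE30, 3.61 and 10.3 in KYSE180 and 2.81 and 8.43 in KYSE450, with 1.55 ± 0.19 (adjusted p = 0.0300). HES4, a transcriptional repressor of the Notch target family, stood at 10.6 and 25.4 FPKM in KYSE30, 10.3 and 19.8 in KYSE180 and 13.9 and 29.8 in KYSE450, with 1.04 ± 0.13 (adjusted p = 0.0300). In these 3 genes the groups did not overlap. PLEKHA4, which binds phosphoinositides, stood at 0.129 and 1.16 FPKM in KYSE30, 2.90 and 10.2 in KYSE180 and 0.0376 and 2.03 in KYSE450, with 1.33 ± 0.18 (adjusted p = 0.0467). Its untreated KYSE180 level exceeded the treated level of the other lines. The 13 alternatives called PPM1K in 8 and HES4 in 9, and the 12 that gave a value called TRANK1 in 8 and PLEKHA4 in 5. Without KYSE450 none of the 4 was called, with adjusted p of 0.061 for TRANK1, 0.0906 for PPM1K, 0.152 for HES4 and 0.184 for PLEKHA4. Without KYSE30 it was 0.0702 for PPM1K and 0.188 for HES4, and without KYSE180 it was 0.0715 for PPM1K and 0.129 for PLEKHA4.

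Long transcripts without a known protein were also among the called genes. RP11-609D21.3 (17:6772831-6776116, minus strand) was at 0.0328, 0.00569 and 0.0272 FPKM in untreated KYSE30, KYSE180 and KYSE450 and at 7.73, 4.16 and 7.62 FPKM after IFN-β, a log2 fold change of 2.84 ± 0.19 (adjusted p = 0.00226). It passed the filter through its treated libraries alone. CTD-2095E4.5 (17:32127595-32128454, plus strand) went from 0.532 to 6.68, from 0.480 to 2.61 and from 1.13 to 4.87 FPKM in the same order of lines, with 1.69 ± 0.23 (adjusted p = 0.0481). These are 2 of the 825 long non-coding genes tested (0.242%), and 0 were called lower by limma (45 were lower at an unadjusted p under 0.05). C5orf56 (5:132410636-132488702, plus strand) had 1.60 ± 0.14 (adjusted p = 0.00751) and went from 1.85 to 7.11, from 0.844 to 5.02 and from 0.476 to 3.41 FPKM. The call of CTD-2095E4.5 was lost without any 1 line (adjusted p of 0.0647, 0.0762 and 0.164 without KYSE30, KYSE180 and KYSE450), and that of C5orf56 without KYSE450 (0.0509).

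Of the 10 called genes outside the lists, 4 lie within 100 kb of a called classical gene, as do 110 of the 11817 other tested genes outside the lists with a position (0.931%). RP11-609D21.3 overlaps XAF1 and C5orf56 overlaps IRF1, each on the opposite strand, and without a stated strand setting the reads of such pairs cannot be told apart. HES4 lies 965 bases from the annotated span of ISG15, and PPM1K lies 94 kb from HERC6. HES4 ends at 1:1000172 and the ISG15 span begins at 1:1001138, whereas the ISG15 promoter bases shown above end farther off, at chr1:1013496. Of the 4 called-higher genes outside the lists that were found in the promoter table, C5orf56 (listed there as CARINH) was the 1 with the motif described above. Its 200 bases before the start, at chr5:132410729-132410928 on the plus strand, are shown for comparison with the classical promoters, again with matches in capitals.
C5orf56: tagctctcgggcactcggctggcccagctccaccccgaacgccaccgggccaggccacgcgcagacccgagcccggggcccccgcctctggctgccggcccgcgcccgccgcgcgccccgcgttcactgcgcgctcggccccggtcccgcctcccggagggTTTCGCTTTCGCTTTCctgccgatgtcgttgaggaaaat
Its 2 overlapping matches begin 39 and 33 bases before the start, closer to it than in the 5 classical promoters.

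**Figure D2:**
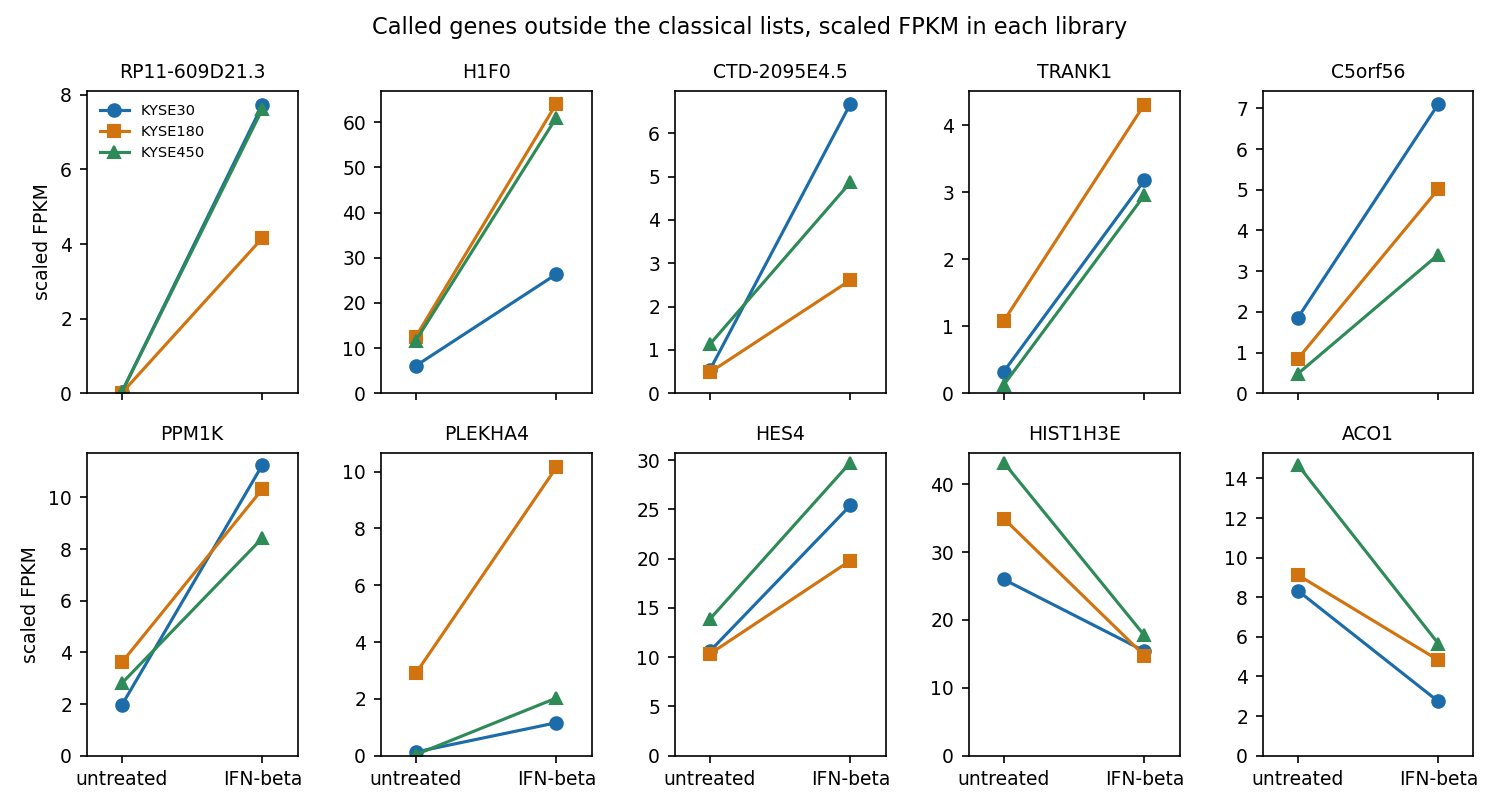
Scaled FPKM in untreated and IFN-β-treated cells of each line for the 10 called genes outside the classical lists, each panel with its own axis from 0. H1F0 reaches 64.1 FPKM in treated KYSE180, and HIST1H3E and ACO1 are the 2 panels in which all lines go down.

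The 2 genes called lower were near the threshold. ACO1 (9:32384603-32454769, plus strand) encodes the cytosolic aconitase that becomes iron regulatory protein when iron is scarce. It stood at 8.34 and 2.74 FPKM in KYSE30, 9.13 and 4.82 in KYSE180 and 14.7 and 5.66 in KYSE450, with a log2 fold change of -1.12 ± 0.15 (limma adjusted p = 0.0487). Every treated library was below every untreated one. The end of ACO1 lies 935 bases from that of DDX58, which is on the opposite strand and had a log2 fold change of 3.74 ± 0.81. HIST1H3E (6:26224199-26227473, plus strand), a replication-dependent histone H3 gene, stood at 26.0 and 15.4 FPKM in KYSE30, 34.9 and 14.8 in KYSE180 and 43.2 and 17.7 in KYSE450, with -1.05 ± 0.15 (adjusted p = 0.0498). Of 13 alternatives 5 called ACO1 and 4 called HIST1H3E, and the direction was the same in each. Without KYSE30, KYSE180 and KYSE450 the adjusted p of HIST1H3E was 0.0758, 0.151 and 0.215, and that of ACO1 was 0.197 without KYSE30 and 0.241 without KYSE450. Among the 15 iron and heme genes tested ACO1 was the 1 called, and the transferrin receptor gene TFRC had -0.58 ± 0.17 (adjusted p = 0.420).

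Counted without a test, 85 genes (0.685%) were at least 2-fold higher in every line and 1 gene (0.00806%) was at least 2-fold lower. Of the 85, 47 were called and 11 were outside the classical lists. The 5 of those 11 that were not called are RP11-12J10.4, BISPR, HLA-H, SCARNA9 and SLFN5. The 1 gene lower was SNHG19 (16:2154797-2155358, minus strand), a small nucleolar RNA host gene. It stood at 119.8 and 5.21 FPKM in KYSE30, 44.1 and 7.32 in KYSE180 and 112 and 5.02 in KYSE450, so every treated library was below every untreated one. Its log2 fold change was -3.65 ± 0.41, and it missed the threshold (adjusted p = 0.0689), while 5 of 13 alternatives called it, among them own scaling factors for the long non-coding genes (adjusted p = 0.00757).

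Other genes were lower in every line without passing the test. KRT5, the keratin of basal squamous cells, went from 2042 to 1100.0 FPKM in KYSE180 and from 4201 to 2065 in KYSE450, and from 3.13 to 1.47 in KYSE30 (log2 fold change -0.89 ± 0.14, adjusted p = 0.0913). The cell adhesion gene CNTN1 had -0.97 ± 0.16 (adjusted p = 0.0876) and the long RNA FAM83H-AS1 had -1.20 ± 0.18 (adjusted p = 0.0663). NMU, the neuropeptide neuromedin U gene, had log2 ratios of (FPKM + 1) of -0.67, -0.65 and -0.66 (adjusted p = 0.137). These look alike partly through the added 1, since its levels were unlike. It stood at 1.60 and 0.633 FPKM in KYSE30, 11.1 and 6.70 in KYSE180 and 104.6 and 65.9 in KYSE450. As deposited, the KYSE450 values were 83.5 and 76.1 FPKM. Among genes outside the classical lists that were higher in every line and not called, EHD4, which acts in endocytic membrane traffic, had 0.80 ± 0.12 (adjusted p = 0.0562), the D-type cyclin gene CCND3 had 0.81 ± 0.13 (adjusted p = 0.0876) and the mitotic kinase gene MASTL had 0.72 ± 0.12 (adjusted p = 0.107).

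Of the lists outside the interferon genes, the one with the highest share lower in every line was that of the cytosolic ribosomal proteins, the subunits that with ribosomal RNA form the ribosome. After scaling, 65 of 76 were lower in every line and 1, RPL28, was higher in every line, against 18.6% and 16.7% of all genes tested. None was called by limma, and 42 were lower and 0 higher at an unadjusted p under 0.05. Their median log2 fold change was -0.40, with line medians of -0.29, -0.43 and -0.49. This depended on the scaling: 67 were lower in every line with upper-quartile scaling, 31 with the values as deposited (median -0.25) and 25 with quantile normalization (median -0.16), and in KYSE450 the line median turned to 0.04 and 0.0058 in the latter pair of settings. As deposited, the KYSE450 median over all genes tested was 0.41, in the same library pair whose RMRP and RPPH1 share differed. The part of these RNAs in the result was not tested.

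Within the group the differences were graded. RPL7 stood at 5258 and 3342 FPKM in KYSE30, 1957 and 958 in KYSE180 and 4052 and 2126 in KYSE450 (log2 fold change -0.87 ± 0.16, adjusted p = 0.149). RPS3A had -0.88 ± 0.17, RPLP0 -0.78 ± 0.20, RPL9 -0.76 ± 0.16 and RPL5 -0.65 ± 0.15. At the other end RPS26 had 0.00 ± 0.15, RPL36 0.02 ± 0.16 and RPS15 0.09 ± 0.15. RPL28 and RPS16 had log2 ratios of 1.29 and 0.92 in KYSE450 against 0.00 and -0.58 in KYSE180. Ribosomal protein genes have many processed pseudogenes, and reads shared with these copies make single values uncertain. Of 804 other genes that averaged at least 100 FPKM, 22.9% were lower in every line, and of 247 of those shorter than 1500 bases 14.98% were, against 85.5% of the ribosomal protein genes. These sets were not matched: their median levels were 174.8 and 243.3 FPKM, against 1656 FPKM for the ribosomal protein genes. Length was that of the longest annotated transcript, with a median of 1842 bases for the ribosomal protein genes. The part of level or length in the result was not tested.

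As a share of the summed FPKM of named genes without RMRP and RPPH1, ribosomal protein genes held 25.5% untreated and 22.1% treated in KYSE30, 22.4% and 16.7% in KYSE180, and 25.9% and 22.1% in KYSE450. With these RNAs in the sum the shares went from 16.0% to 13.3% in KYSE30 and from 13.7% to 9.69% in KYSE180, but from 16.0% to 16.2% in KYSE450. In such bulk libraries fewer cells with a transcript and less of it per cell cannot be told apart.

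**Figure D3:**
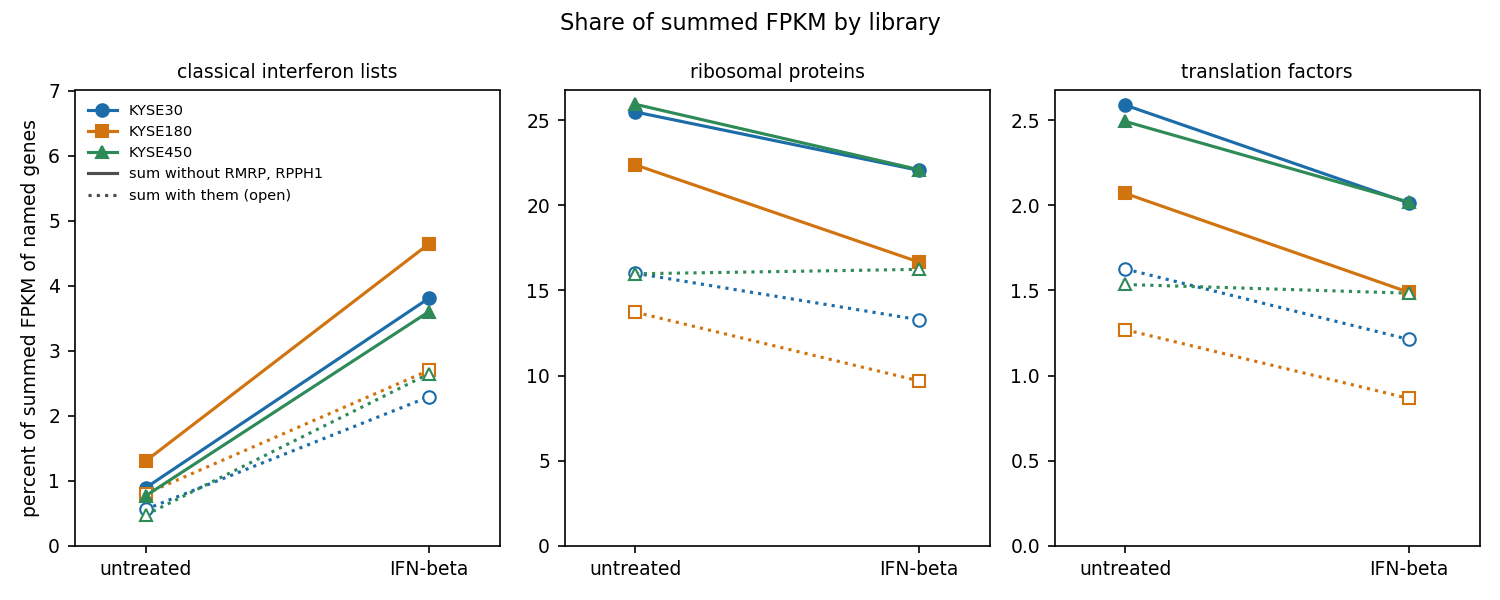
Percent of the summed FPKM of named genes held by the classical interferon lists, the ribosomal protein genes and the translation factors in each library, with RMRP and RPPH1 left out of the sum (filled points, solid lines) or kept in it (open points, dotted lines). The interferon lists go up in every line under both sums, and the ribosomal share goes down in every line except for KYSE450 when these RNAs are kept, from 16.0% to 16.2%.

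Translation factors, which carry the ribosome through initiation and elongation, were mixed. Of 30 tested 13 were lower and 2 higher in every line, with a median log2 fold change of -0.13 and 0 calls by limma (8 lower and 1 higher at an unadjusted p under 0.05). As deposited 5 were lower and 5 higher in every line and the median was 0.02. The elongation factor genes EEF1A1, EEF1B2 and EEF1G had -0.85 ± 0.17, -0.78 ± 0.18 and -0.73 ± 0.16, and the initiation factor genes EIF4B and EIF3L had -0.71 ± 0.14 and -0.63 ± 0.16. Other initiation factors were near 0, among them EIF4A1 at -0.07 ± 0.15 and EIF4E at 0.09 ± 0.15. The 30 genes of ribosome biogenesis and MYC targets, which act in making ribosomal RNA and assembling subunits, had a median of 0.15, with 5 higher and 1 lower in every line.

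Oxidative phosphorylation genes, the subunits of the mitochondrial respiratory chain, were lower in every line for 17 of 43 and higher for 0. Their line medians were -0.09, 0.05 and -0.47, so the direction was not shared by the lines. As deposited 9 were lower and 5 higher in every line.

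**Figure D4:**
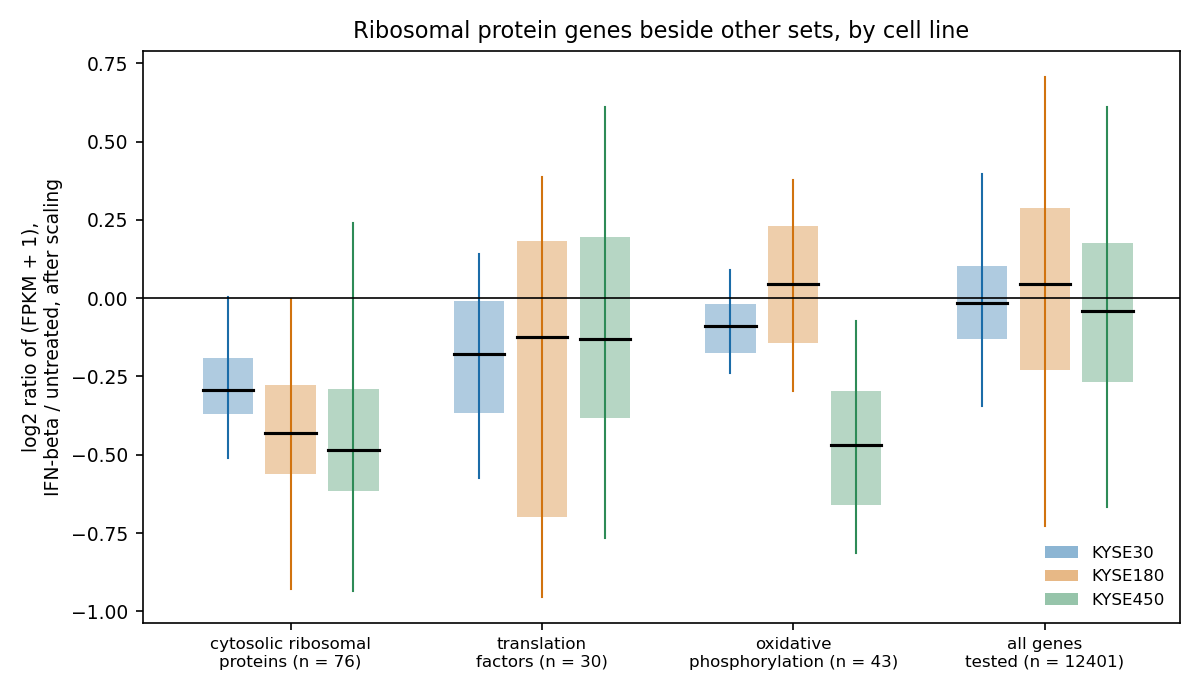
Log2 ratio of (FPKM + 1), IFN-β over untreated after scaling, in each line for ribosomal protein genes, translation factors, oxidative phosphorylation genes and all genes tested; black bars are medians, boxes the middle 50% and lines the range from the 5th to the 95th percentile of genes. The ribosomal medians are -0.29, -0.43 and -0.49 in KYSE30, KYSE180 and KYSE450, and those of all genes are -0.02, 0.04 and -0.04.

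Stress and inflammatory genes were more often higher in every line than lower, with 0 called by limma in either list. At an unadjusted p under 0.05, 11 stress response genes and 5 inflammatory genes were higher and 0 were lower. Of 28 genes of the unfolded protein and integrated stress response, which answer misfolded protein and amino acid shortage, 17 were higher and 2 lower in every line, and 16 to 20 were higher in every line under the other scalings. Their median log2 fold change was 0.27, with line medians of 0.18, 0.52 and 0.13. The asparagine synthetase gene ASNS stood at 19.03 and 29.2 FPKM in KYSE30, 117 and 179 in KYSE180 and 57.2 and 93.4 in KYSE450 (0.63 ± 0.12, adjusted p = 0.156). The chaperone gene HSPA5 had log2 ratios of 0.40, 0.71 and 1.80, and the stress factor genes ATF3 and TRIB3 had fold changes of 0.80 ± 0.18 and 0.68 ± 0.17 on the log2 scale. Of 14 tested genes of NF-κB signalling and inflammation 9 were higher and 0 lower in every line, with a median of 0.36. NFKB2 had 0.64 ± 0.15 and the chemokine genes CCL5 and IL8 had 0.95 ± 0.18 and 1.93 ± 0.65. IL8 varied most, with log2 ratios of 0.78, 3.66 and 1.35. Cell death regulators were higher in every line for 10 of 29, among them the BH3-only gene PMAIP1 at 0.85 ± 0.17, and lower for 2.

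After scaling, the medians of squamous genes split by line, but KYSE30 held little of these transcripts before treatment. Keratinocyte differentiation genes took 0.0300%, 1.53% and 1.35% of the untreated sum without RMRP and RPPH1, in line order. Basal squamous genes took 0.19%, 0.98% and 0.94%. The log2(FPKM + 1) scale understates changes at low levels, so the KYSE30 medians cannot show whether its response differed. The 20 tested genes of keratinocyte differentiation had line medians of 0.04, -0.76 and -0.57, with 4 lower and 0 higher in every line. DSC2, a desmosomal cadherin gene, had -0.45 ± 0.12 and the cornified envelope gene IVL had -0.61 ± 0.20, both lower in every line after scaling. As deposited, DSC2 stood at 49.08 and 51.45 FPKM in KYSE450. Of the 20 basal squamous genes 4 were lower and 0 higher in every line, with line medians of 0.09, -0.59 and -0.26. The KYSE450 medians depended on the scaling. As deposited that of keratinocyte differentiation was -0.09, with 2 genes lower and 0 higher in every line. That of the basal genes was 0.17, with 4 lower and 3 higher. KRT15 had -0.22, -1.06 and -2.14 by line, while TP63, the lineage factor of squamous epithelium, had -0.14 ± 0.14.

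After scaling, the remaining lists, cell type markers left out, each had members higher and members lower in every line. Their shares lay near, above or below those of all genes tested, 16.7% higher and 18.6% lower. Of 40 cell cycle and DNA replication genes 6 were higher and 3 lower in every line. Among 23 p53 targets these counts were 7 and 7, and among 31 constitutive proteasome genes 2 and 1. Of 32 sterol and fatty acid synthesis genes 4 were higher and 5 lower in every line. Amino acid supply and tRNA charging had 12 higher and 4 lower of 32, and lysosome and autophagy 11 higher and 5 lower of 30, where LAMP3 was the 1 call. These counts depended on the scaling. As deposited, 12 cell cycle genes were higher and 0 lower in every line, and 9 and 5 p53 targets. The proteasome list had 8 and 0, sterol and fatty acid synthesis 3 and 0, and amino acid supply 14 and 0.

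**Figure D5:**
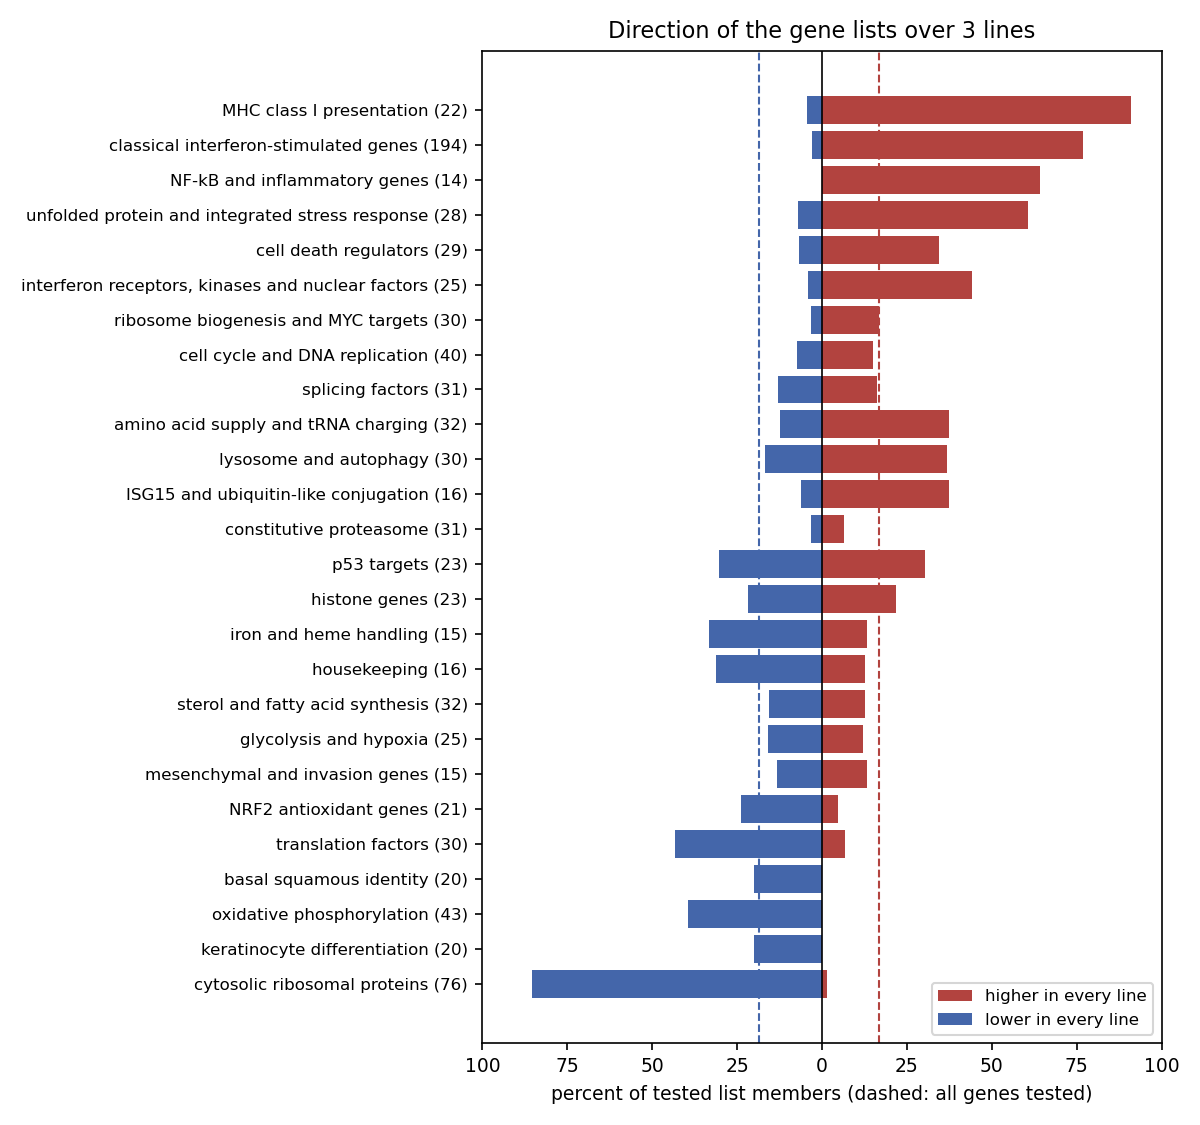
Percent of the tested members of each gene list with at least 10 tested genes, cell type markers left out, that were higher (right) or lower (left) in every line, ordered by the median log2 fold change, with the number tested in brackets and dashed lines at the values of all genes tested, 16.7% and 18.6%. Of the lists drawn, MHC class I and the classical interferon genes extend farthest to the right and the ribosomal proteins farthest to the left.

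Among the 55 genes called higher, the smallest of the 3 log2 ratios was in KYSE180 for 28, in KYSE30 for 15 and in KYSE450 for 12. The median log2 ratio of these genes was 2.17, 2.00 and 2.29 by line. Their median level was 6.07, 8.27 and 5.61 FPKM in untreated and 41.8, 39.5 and 43.2 FPKM in treated KYSE30, KYSE180 and KYSE450, so relative to their size the treated medians were closer to each other than the untreated ones. The range of log2 ratios over the lines was under 0.5 for 16 of the 55 and above 1 for 13, with IFI6, IFIT1 and PARP9 among the widest.

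The log2 ratios of the lines were also compared across genes, as a description, since genes are not independent replicates. Over the 211 classical genes the log2 ratios of KYSE30 and KYSE450 correlated at Pearson r = 0.92 (Spearman rho = 0.89), those of KYSE180 and KYSE450 at 0.82 (0.80) and those of KYSE30 and KYSE180 at 0.78 (0.79). Over the 12190 other genes the same pairs had r = 0.21 (0.25), 0.16 (0.15) and 0.10 (0.14). The lines share no library, and low levels add scatter: over the 8905 others that averaged at least 5 FPKM r was 0.27, 0.17 and 0.13. Counted within single lines, 181 genes in KYSE30, 274 in KYSE180 and 241 in KYSE450 were at least 2-fold higher, and 54, 248 and 201 were at least 2-fold lower, where 1 library per arm allows no test.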

How the data were processed

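RNA sequencing values of 6 libraries were used. The authors deposited FPKM, as the file headers say. TopHat, HTSeq and hg38 stand without versions in the submitters' processing notes, and strand and depth are not stated. FPKM of 28032 long non-coding transcripts were summed to 16044 genes. Median-of-ratios factors from the named genes scaled all values, and genes at 1 FPKM or more in at least 3 of the 6 libraries were tested as log2(FPKM + 1) with limma 3.58.1 (trend, robust, statmod 1.5.0, R 4.3.3), cell line as a block, at a Benjamini-Hochberg adjusted p of 0.05. The residual degrees of freedom were 2. Lines were paired by label, and the deviations of a line's libraries correlated at 0.91 (KYSE30), 0.84 (KYSE180) and 0.88 (KYSE450).

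A current symbol was found for 19784 of 20502 named genes, 26 names are spreadsheet dates, and positions are from GENCODE 29. Named in full are the 10 largest called changes in each direction, called genes outside the classical lists, up to 15 uncalled genes lower or higher in every line with the smallest p, up to 4 of each of 30 lists and those near the threshold. Other named members of a list, and BST2, OAS1, MX1 and DDX58, were chosen after their values were seen. Values of 3 of these genes are not reported here. Members, lists and roles were chosen with earlier results of these data known. The fit was tested on simulated data. Alternatives were 13, and those on ribosomal proteins and on 22 further genes were added after seeing the data. Tables and figures used Python 3.11.15, pandas 2.3.3 and matplotlib 3.10.9.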

Additional observations from a re-analysis of the deposited data

How the results depend on the processing

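Over the 205 genes followed under the 13 alternatives, those chosen by the rule and those added for the text, the direction turned for 13, none of them called. As deposited the log2 fold change was 0.0178 for CANX, 0.084 for EIF4A1, 0.068 for JAK1, 0.126 for RPS16, 0.149 for RPS26 and 0.00713 for TP63, and with quantile normalization it was 0.049 for EIF4A1, 0.0683 for RPS16 and 0.0363 for RPS26. Over left-out lines the values ran from -0.913 to 0.0295 for AKR1C1, -0.0841 to 0.191 for ACTA2, -0.0573 to 0.238 for EIF4E, -0.103 to 0.258 for IFNAR1, -0.126 to 0.286 for IFNAR2, -0.215 to 0.063 for JAK1, -0.0055 to 0.646 for RPL28, -0.0574 to 0.133 for RPL36, -0.506 to 0.251 for RPS16 and -0.0867 to 0.0501 for RPS26. Of the 57 calls, 7 were made under every alternative (IFI27, ISG15, OAS2, OASL, PLSCR1, TRIM22 and XAF1) and 27 under at least 10. With the values as deposited the counts were 193 higher, 44 lower, 125 outside the classical lists and 26 long non-coding, and ribosomal protein genes lower in every line numbered 31 with a median of -0.251. In that fit limma shrank the spread of the genes almost wholly to the common trend, with 24858 total degrees of freedom against 6.65 in the scaled fit. Quantile normalization gave 1 lower, 25 ribosomal protein genes and a median of -0.157. Own factors for the long non-coding part gave 4 calls there. A pseudocount of 0.1 gave 0 lower, 6 outside and 3 genes 2-fold lower in every line, and one of 5 gave 0 lower, 6 outside and 1 long non-coding. Without a filter 15 were higher, 0 lower, 1 outside and 0 long non-coding, with an average of 5 FPKM 6 were outside and 0 long non-coding, and limma without trend and robust options gave 1 lower. Without the replicate block limma called 13 higher, 0 lower, 0 outside and 0 long non-coding. Leaving out 1 line gave 37 to 75 higher, 1 to 11 lower, 5 to 24 outside, 4 to 6 long non-coding, 110 to 113 genes 2-fold higher and 6 to 33 genes 2-fold lower in every line left, 67 to 70 ribosomal protein genes lower in every line left and medians from -0.47 to -0.374. The cause of these shifts was not tested. With fewer lines a direction shared by all of them is easier to meet. The unfiltered fit adjusted over 23648 genes, and its median total degrees of freedom were 4.67 against 6.65 in the main fit. At an unadjusted p under 0.05 the genes lower, of which these alternatives called 0, numbered 640 and 597 with pseudocounts of 0.1 and 5, 677 without a filter and 12 without the block. The long non-coding genes numbered 239 without a filter, 25 with an average of 5 FPKM and 13 without the block, where 38 genes lay outside the classical lists. FPKM carry no depth, so the precision of a single library is unknown.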
